A study of Gallus gallus with 4 samples.

Results

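The integrin and cadherin genes of embryonic chick tibial cartilage were followed across 4 expression arrays. Members were genes whose probe sets carry 1 symbol in the platform annotation, made of ITGA, ITGB, CDH or PCDH and the number or letter of a subunit, and they numbered 50 of the 13009 genes named on the array (10 integrin alpha, 6 integrin beta, 19 cadherin and 15 protocadherin genes). The probe set with the highest mean level stood for each gene. Of the 50, 32 were bright enough to enter the test and 18 were not. ITGA5 and ITGA10 were not named by the annotation used and were not analysed here.

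The samples came from white leghorn chicken embryos. TC+AC was a dissection of articular cartilage that carried some of the adjoining transient cartilage, and TC was transient cartilage alone, which is later replaced by bone. Each was taken at embryonic day 12 (E12, stage 38) and day 14 (E14, stage 40), with 5 micrograms of total RNA pooled from many dissections and 1 array for each of TC+AC E12, TC E12, TC+AC E14 and TC E14. No group had a replicate, so the p-values below rest on how far the 2 stages gave the same tissue difference and on a spread shared across genes, not on the spread between embryos. The comparison of TC+AC with TC asks which genes mark the cartilage that persists at the joint, and that of E14 with E12 asks what changed over the interval.

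Integrins are heterodimers of an alpha and a beta subunit that tie the cytoskeleton to the extracellular matrix, and in cartilage they are the receptors through which chondrocytes hold collagens, fibronectin and laminins. Cadherins are calcium-dependent receptors that join like cells to each other, with their tails bound to catenins. In the chick limb, N-cadherin (CDH2) is known for its part in the mesenchymal condensation that precedes cartilage, and cadherin-11 (CDH11) is known from mesenchyme, bone cells and the synovial lining.

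Levels are quantile normalized linear intensities, which can be set against each other across arrays for 1 probe set but not between genes. Signal from probe sets that target viruses set the background of each array (their 95th percentile), at 19.1 in TC+AC E12, 18.85 in TC E12, 24.6 in TC+AC E14 and 15.55 in TC E14. The TC+AC E14 array had the lowest deposited median (13.1, against 20.6 to 23.1 on the others) and the highest ratio of 3' to 5' signal for beta-actin (7.48, against 1.99 to 4.01). The 9 cartilage markers checked, among them COL2A1, ACAN and SOX9, were above background on all 4 arrays.

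CDH2 was the single member that passed the tissue test, and it was lower in TC+AC. Its intensity was 104 in TC+AC and 519 in TC at E12, and 63.1 in TC+AC and 278 in TC at E14. Both TC+AC values lay below both TC values. CDH2 was thus 4.98-fold lower in TC+AC at E12 and 4.41-fold lower at E14, with a fitted log2 difference of -2.23 ± 0.50 (SE, limma, 4 arrays, adjusted p = 0.0136). A total of 1.47% of the 7805 genes tested passed in either direction and 0.73% passed as lower, and against that background a single call among 32 members sets nothing apart about the family.

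The second CDH2 probe set had 28.5 in TC+AC and 210.7 in TC at E12, and 44.7 in TC+AC and 62.9 in TC at E14. It was also lower in TC+AC at both stages, but by -2.88 on the log2 scale at E12 and -0.49 at E14, and with it in place of the brighter one the fitted value was -1.69 (limma adjusted p = 0.121). The CDH2 call also ended on the intensities as deposited (adjusted p = 0.196), with no filter on dim genes (0.695), with probe sets averaged (0.165), with no stage term (0.19), and without the TC+AC E12 array (0.589) or the TC+AC E14 array (0.999). The fitted value was negative in each of the settings run, between -2.68 and -1.69, and the adjusted p lay between 0.000843 and 0.999.

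Markers of hypertrophic cartilage, bone and cartilage in general were lower in TC+AC in sum, as CDH2 was. The summed intensity of the 10 hypertrophic cartilage markers found of 10 listed was 937 in TC+AC and 8289 in TC at E12, and 970.5 in TC+AC and 9026 in TC at E14, with 6 to 9 of them above background per array. That of the 7 osteoblast markers found of 9 listed was 571 in TC+AC and 7063 in TC at E12, and 473 in TC+AC and 1811 in TC at E14. SPP1 and IBSP stood on both lists. The 9 cartilage markers summed to 13097 in TC+AC and 17109 in TC at E12, and to 23910.0 in TC+AC and 47485 in TC at E14. Of these 9, 7 were lower in TC+AC at E12 and 9 at E14, beside 3911 and 3752 of all 7805 genes. Of those tested, 6 of 8 hypertrophic, 3 of 6 osteoblast and 1 of 9 cartilage markers passed as lower in TC+AC (limma). The share of all genes that did so was 0.73%. Skeletal muscle markers, from a tissue that also expresses N-cadherin, ran with CDH2 at E12 and against it at E14, at 799.6 in TC+AC and 1043 in TC, and then 682 in TC+AC and 184 in TC. The part of these cell types in the CDH2 difference was not tested. In such bulk samples, fewer cells of a type and less RNA per cell cannot be told apart.

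**Figure D1:**
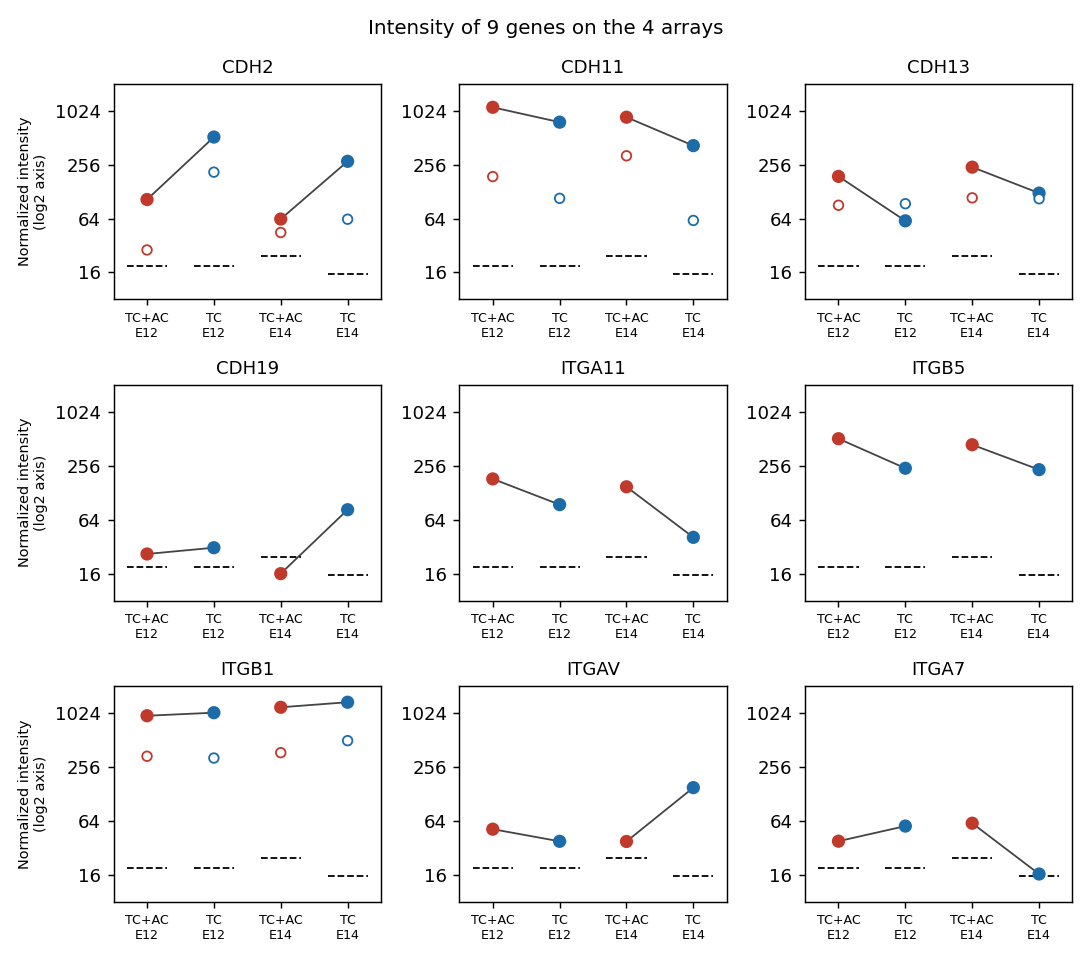
Normalized intensity (log2 axis) of 9 genes on the TC+AC (red) and TC (blue) arrays of E12 and E14; filled points are the brightest probe set, open points any other probe set above background on all arrays, and dashed lines the background of each array. CDH2 is lower in TC+AC at both stages (104 against 519, then 63.1 against 278), ITGB1 is nearly level, and ITGAV stands apart in TC at E14 alone.

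Of the type I cadherins, the class of CDH2, CDH3 and CDH4 were also tested. CDH3, which encodes P-cadherin, had 93.6 in TC+AC and 164 in TC at E12, and 174 in TC+AC and 77.4 in TC at E14. Its log2 differences of -0.81 and 1.17 had opposite signs on this probe set after quantile normalization. On the deposited intensities they were -0.62 and -0.09. A second CDH3 probe set, below background in both TC+AC samples, was at least 1.55-fold lower in TC+AC at E12 and at least 1.39-fold lower at E14, and the mean of both gave a fitted value of -0.35. CDH4, which encodes R-cadherin, had 32.6 in TC+AC and 25.9 in TC at E12, and 43.8 in TC+AC and 28.2 in TC at E14 (log2 differences of 0.34 and 0.64). Neither passed the test, with limma adjusted p of 0.926 for CDH3 and 0.741 for CDH4.

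Of the type II cadherins, CDH11 had 1115 in TC+AC and 761 in TC at E12, and 864 in TC+AC and 416 in TC at E14. The groups did not overlap, but the fitted log2 difference of 0.80 ± 0.50 (SE, limma, 4 arrays) did not pass (adjusted p = 0.505). A second CDH11 probe set, above background on every array, differed by 0.81 at E12 and by 2.40 at E14 on the log2 scale. CDH11 was thus above TC in TC+AC at both stages on both probe sets after quantile normalization, though on the deposited intensities the E14 difference of the brighter one was -0.15.

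CDH5, which encodes the VE-cadherin of endothelial cells, had 239 in TC+AC and 349 in TC at E12, and 249 in TC+AC and 146 in TC at E14 (adjusted p = 0.953). After quantile normalization TC at E12 held the highest value and TC at E14 the lowest. On the deposited intensities the E14 log2 difference was -0.49, so TC+AC at E14 was the lowest there. The 13 endothelial markers found of 13 listed had the same order of arrays within each stage after quantile normalization. Their sums were 1008 in TC+AC and 1185 in TC at E12, and 1071 in TC+AC and 595 in TC at E14. Per array, 10 to 13 of them were above background. Other scalings were not run for this list. The muscle and epithelial sums had this order within each stage too. The part of endothelial cells in the CDH5 values was not tested.

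CDH19, a cadherin known from Schwann cell precursors, had 26.5 in TC+AC and 31.1 in TC at E12, and 16 in TC+AC and 82.7 in TC at E14. The TC+AC value at E14 was below background, so the gene was at least 3.37-fold lower there, and the E12 values differed by 1.17-fold. The fit gave -1.30 ± 0.53 on the log2 scale (SE, limma, 4 arrays, adjusted p = 0.248). The sum of 5 Schwann and nerve markers found of 9 listed ran against CDH19 at E14, with 212 in TC+AC and 92.4 in TC, after 122 in TC+AC and 125 in TC at E12.

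CDH8, a cadherin best known from the nervous system, had 195 in TC+AC and 89.3 in TC at E12, and 263 in TC+AC and 250.3 in TC at E14. The 2.18-fold difference at E12 was thus 1.05-fold at E14, where TC was high as well (adjusted p = 0.673). These values rest on 1 probe set, of a kind that the array's naming marks as open to cross-hybridization, and the 3 other CDH8 probe sets were at or below background on all 4 arrays. CDH20 and CDH22 had log2 differences between 0.13 and 0.84 at both stages, and neither passed.

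CDH13 encodes T-cadherin, which is held in the membrane by a lipid anchor and lacks the catenin-binding tail. Its level was 189 in TC+AC and 60.3 in TC at E12, and 239.5 in TC+AC and 123 in TC at E14. Both TC+AC values lay above both TC values, and CDH13 had the highest E12 difference of the tested members (3.13-fold, and 1.95-fold at E14). It did not pass the test (1.30 ± 0.50, SE, limma, 4 arrays, adjusted p = 0.21), its second probe set had log2 differences of -0.06 and 0.03, and on the deposited intensities its E14 difference was -0.31.

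Several cadherin genes lie side by side in the chicken genome. In the order of coding genes of the RefSeq GRCg7b assembly, CDH11 lay between CDH5 and CDH8 with 0 coding genes between neighbours. After quantile normalization the 3 neighbours had E12 log2 differences of -0.55 for CDH5, 0.55 for CDH11 and 1.12 for CDH8, and E14 differences of 0.77, 1.05 and 0.07 in the same order. CDH3 and CDH1 were likewise direct neighbours, as were CDH6 and CDH9, CDH10 and CDH12, CDH19 and CDH7, and PCDH10 and PCDH18, but in each of these pairs at least 1 gene was too dim to be tested. ITGA1 and ITGA2, with 1 coding gene between them, are taken up with the collagen receptors.

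Among protocadherins, which form a large cadherin branch and do not bind catenins, 8 of 15 genes were tested and 0 passed for tissue (0 at an unadjusted p under 0.05, beside 13.4% of all genes). PCDH17, a non-clustered protocadherin studied mainly in the brain, had 78.3 in TC+AC and 50.05 in TC at E12, and 110.9 in TC+AC and 44.7 in TC at E14 (log2 differences of 0.65 and 1.31, limma adjusted p = 0.402). PCDHGA2, of the clustered gamma protocadherins, had 1224 in TC+AC and 1005 in TC at E12, and 1034 in TC+AC and 488 in TC at E14. Its values rest on 1 probe set, and whether that probe set reads this gene alone was not tested. In both genes the TC+AC values lay above the TC values after quantile normalization. On the deposited intensities the E14 difference was 0.06 for PCDH17 and -0.12 for PCDHGA2.

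PCDH18 was the tested protocadherin with the lowest E14 difference. It had 75.4 in TC+AC and 76.0 in TC at E12, and 25.7 in TC+AC and 64.7 in TC at E14. Of these 4 arrays TC+AC at E14 stood apart, just above its background of 24.6. PCDH15, known as a tip-link protein of hair cells, had log2 differences of -0.46 and 1.20, and PCDH1, PCDH11X, PCDH20 and PCDHGC5 lay between -0.06 and 0.86 at both stages.

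**Figure D2:**
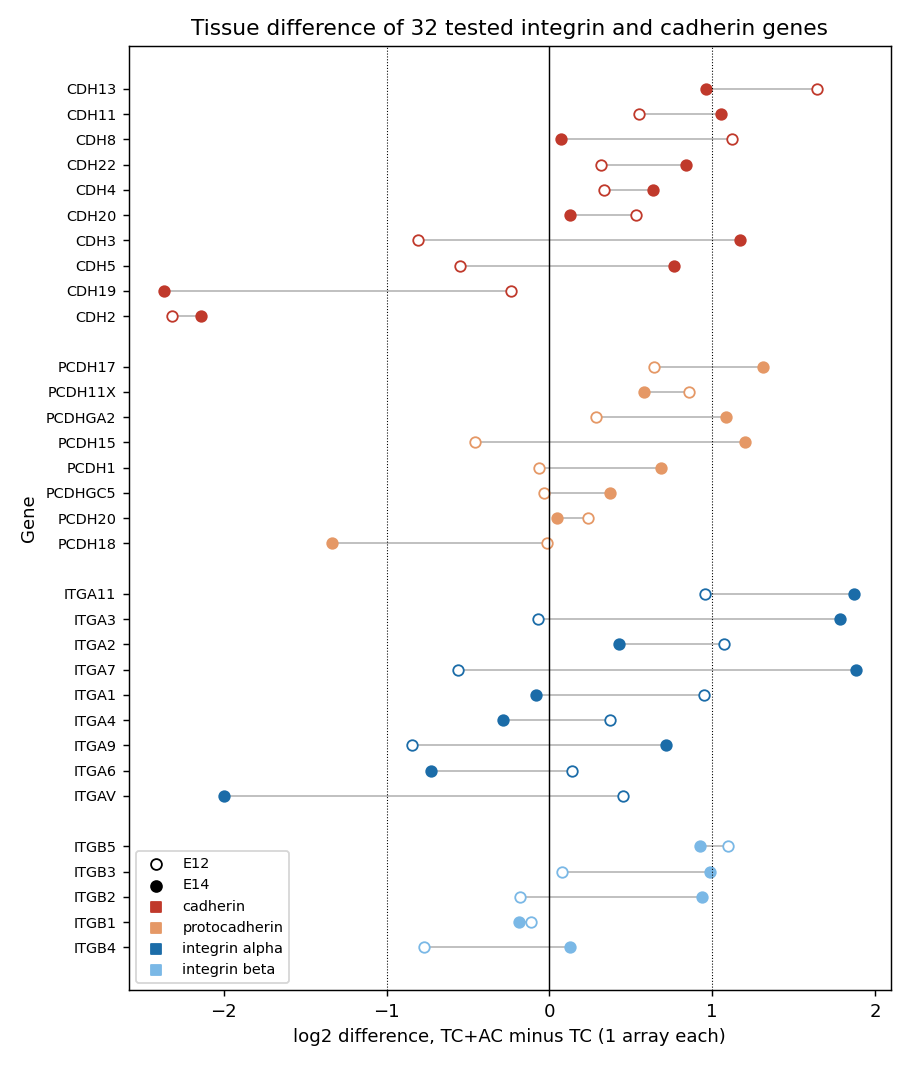
Log2 difference of TC+AC minus TC at E12 (open) and E14 (filled) for the 32 tested genes, 1 array per tissue and stage; dotted lines mark a 2-fold difference. CDH2 is the single gene past 2-fold the same way on both days, with -2.32 and -2.14.

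Of the 3 collagen receptor genes among the integrins, 0 passed for tissue (limma), beside 1.47% of all genes. At an unadjusted p under 0.05 there was 1 (ITGA11), beside 13.4% of all genes. Each of the 3 had a higher value in TC+AC than in TC at E12. ITGA11, the collagen receptor of fibroblasts and other mesenchymal cells, had 183 in TC+AC and 94.2 in TC at E12, and 149 in TC+AC and 40.7 in TC at E14. After quantile normalization the groups did not overlap. The log2 difference of ITGA11, 1.41 ± 0.50 (SE, limma, 4 arrays), was the highest fitted value of the members, but it did not pass (adjusted p = 0.167). On the deposited intensities its fall in TC+AC from E12 to E14 (-1.68) exceeded its E12 tissue difference (1.18), so the groups overlapped there. ITGA11 kept its positive sign at both stages under each of the 3 scalings, with an E14 difference of 1.87 after quantile normalization, 1.42 with arrays centred on their medians and 0.60 as deposited. With probe sets averaged its fitted value was 0.71. After quantile normalization, 9 of 11 fibrous and tendon markers were higher in TC+AC at E12 and 7 at E14. Of all genes, 49.8% and 51.9% were higher. As higher in TC+AC, 1 of these markers passed (limma), beside 0.743% of all genes. The part of fibrous tissue in the ITGA11 values was not tested.

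ITGA1 had 74.8 in TC+AC and 38.7 in TC at E12, and 70.5 in TC+AC and 74.6 in TC at E14. ITGA2 had 63.8 in TC+AC and 30.3 in TC at E12, and 87.5 in TC+AC and 64.95 in TC at E14. For both genes of this neighbouring pair TC at E12 was the lowest of the 4 arrays, with a tissue difference of 1.93-fold for ITGA1 and 2.11-fold for ITGA2 at E12 and of 1.06-fold and 1.35-fold at E14. Neither passed (limma adjusted p of 0.778 for ITGA1 and 0.544 for ITGA2).

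Among laminin receptors, ITGA3 had 101 in TC+AC and 106 in TC at E12, and 172 in TC+AC and 49.9 in TC at E14 (log2 differences of -0.07 and 1.78). ITGA6 had 95.1 in TC+AC and 86.2 in TC at E12, and 74.8 in TC+AC and 124 in TC at E14 (0.14 and -0.72). ITGA3 and ITGA6 thus had opposite signs at E14, and neither passed the test (limma adjusted p of 0.501 and 0.863).

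ITGA7, the laminin receptor of skeletal muscle fibres, had 37.95 in TC+AC and 55.95 in TC at E12, and 60.2 in TC+AC and 16.3 in TC at E14. The order of the tissues turned round between the stages on this probe set (limma adjusted p = 0.662), and the TC E14 value lay just above its background of 15.55. The second ITGA7 probe set was at or below background on all 4 arrays. With both averaged, the log2 differences were 0.34 at E12 and 1.06 at E14, of the same sign. The 11 skeletal muscle markers found of 13 listed turned in the same way, with the sums given above, and 10 of them were above background in TC+AC E12, 8 in TC E12, 5 in TC+AC E14 and 4 in TC E14. The turn was not particular to muscle. After quantile normalization the endothelial, epithelial, and Schwann and nerve sums turned in the same way. The erythroid sum was also lowest in TC E14, at 9311, against 18270 to 19342.5 on the other arrays. The part of muscle RNA in the ITGA7 values was not tested.

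ITGAV, the alpha subunit of the vitronectin and fibronectin receptors, had 51.7 in TC+AC and 37.8 in TC at E12, and 37.7 in TC+AC and 150.3 in TC at E14. TC at E14 stood apart from the other 3 arrays, which spanned 37.7 to 51.7. On the log2 scale the tissues differed by 0.45 at E12 and by -2.00 at E14, with opposite signs, and the fit gave -0.77 ± 0.55 (SE, limma, 4 arrays, adjusted p = 0.583). The related subunit gene ITGA8 was too dim for the test. Its probe set of highest mean was at or below background on all 4 arrays, and its other one had 21.2 in TC+AC and 20.05 in TC at E12, just above background, and was below it at E14. ITGA4 and ITGA9, whose subunits bind VCAM1, fibronectin and tenascin-C among other ligands, had log2 differences of 0.37 and -0.29, and of -0.84 and 0.71, at E12 and E14.

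None of the 5 beta subunit genes tested passed for tissue (limma), beside 1.47% of all genes. At an unadjusted p under 0.05 there were 0, beside 13.4% of all genes. ITGB1, the partner of most alpha subunits in cartilage, had 953 in TC+AC and 1031 in TC at E12, and 1184 in TC+AC and 1349 in TC at E14. The fitted log2 difference was -0.15 ± 0.50 (SE, limma, 4 arrays, adjusted p = 0.934), and its second probe set had 0.07 at E12 and -0.45 at E14. A standard error of 0.50 leaves room for a difference of either sign.

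ITGB5, a partner of the alpha V subunit, had 513 in TC+AC and 239.9 in TC at E12, and 439 in TC+AC and 231 in TC at E14. The groups did not overlap, with 2.14-fold at E12 and 1.90-fold at E14, close to each other on the log2 scale (1.10 and 0.92). With 1.01 ± 0.50 (SE, limma, 4 arrays) it did not pass (adjusted p = 0.372), and on the deposited intensities its E14 difference was -0.34. The ITGB5 and ITGAV subunits pair with each other, and after quantile normalization their genes had log2 differences of opposite sign at E14, though not on the deposited intensities.

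ITGB3, the beta subunit of osteoclasts and thrombocytes that also pairs with alpha V, had 139.8 in TC+AC and 132 in TC at E12, and 146 in TC+AC and 73.3 in TC at E14 (limma adjusted p = 0.711). On the deposited intensities its E14 difference was -0.28. A second ITGB3 probe set had 37.9 in TC+AC and 22.1 in TC at E12. At E14 it had 14.7 in TC+AC, below background, and 25.15 in TC. The sum of 3 thrombocyte markers found of 8 listed was 292 in TC+AC and 539 in TC at E12, and 403 in TC+AC and 4030.4 in TC at E14. F13A1 made up most of the thrombocyte sum at E14, with 281 in TC+AC and 3966 in TC. The sum thus mainly reads this gene, and which cells its RNA came from was not tested. Of the 2 thrombocyte markers tested, 1 passed as lower in TC+AC (limma), beside 0.73% of all genes. The part of thrombocytes in the ITGB3 values was not tested. THBS1 ran with the brighter ITGB3 probe set at E14, with 96.0 in TC+AC and 41.0 in TC. The leukocyte subunit gene ITGB2 had 41.0 in TC+AC and 46.4 in TC at E12, and 47.9 in TC+AC and 25.0 in TC at E14. The sum of 11 leukocyte markers found of 13 listed was 1652 in TC+AC and 1503 in TC at E12, and 1582 in TC+AC and 862 in TC at E14. As with ITGB2, TC at E14 was the lowest of the 4 arrays in that sum after quantile normalization. The same held for the endothelial, erythroid, muscle and epithelial sums, and the part of leukocytes was not tested. On the deposited intensities the E14 difference of ITGB2 was -0.12. ITGB4, the hemidesmosome subunit that pairs with alpha 6, had log2 differences of -0.77 and 0.13.

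Over the 32 tested members, 18 were higher and 14 lower in TC+AC at E12, where 49.8% of all 7805 genes were higher. The median log2 difference was 0.19 beside -0.0019 over all genes. At E14, 24 members were higher and 8 lower after quantile normalization, where 51.9% of all genes were higher, with a median of 0.66 beside 0.05 over all genes. The sign of the E14 counts depended on scaling, since 21 of 32 were higher with arrays centred on their medians, beside 39.8% of all genes. As deposited, 5 of 32 were higher (ITGA3, ITGA7, ITGA11, PCDH15 and PCDH17), beside 15.8% of all genes, and the median over all genes was -1.09. The count as deposited thus sets nothing apart about the members. Measured from the median of all genes, 23 of 32 members were above it under each of the 3 scalings. Centring shifts each array by a constant on the log2 scale. The deposited and centred counts thus agree here nearly by construction and are not separate support.

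At least 2-fold apart were 4 higher and 1 lower member at E12, beside 4.46% and 3.28% of all genes, and 8 higher and 4 lower at E14, beside 20.3% and 15.6% of all genes. Past 2-fold the same way on both days there were 0 higher members, beside 2.49% of all genes, and 1 lower member (CDH2), beside 1.4% of all genes. After quantile normalization, both TC+AC values lay above both TC values in 11 of the 32 members, beside 22.8% of all genes. They lay below them in 2 (CDH2 and CDH19), beside 20.5% of all genes. The 11 were CDH4, CDH11, CDH13, CDH22, ITGA11, ITGB3, ITGB5, PCDHGA2, PCDH11X, PCDH17 and PCDH20. On the deposited intensities, only ITGA11 and PCDH17 of these had a positive E14 difference, of 0.60 and 0.06.

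**Figure D3:**
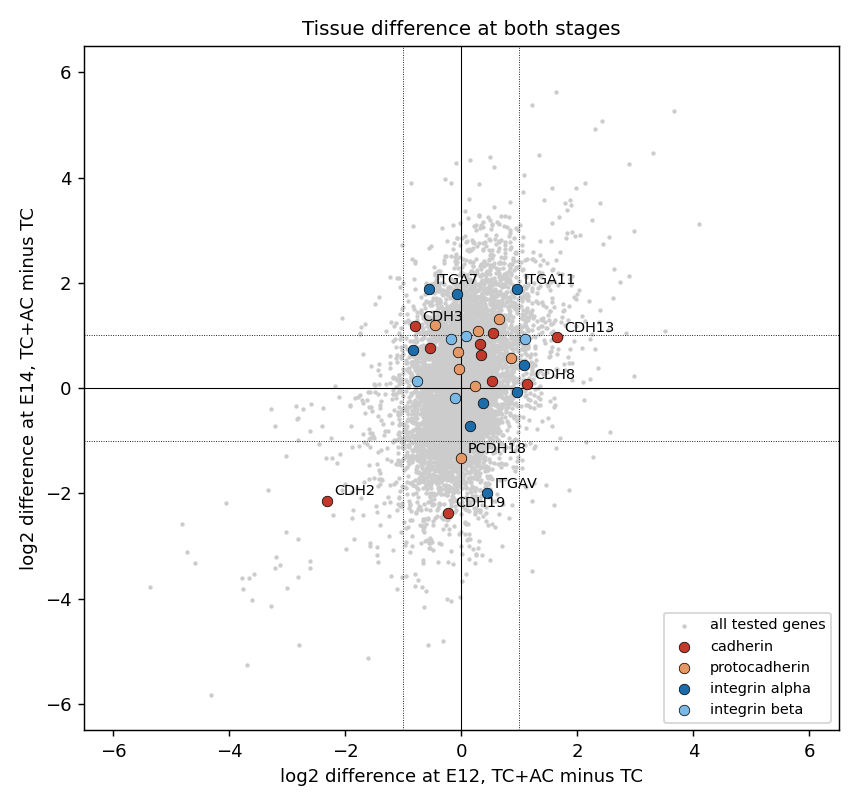
Log2 difference of TC+AC minus TC at E12 (x axis) against E14 (y axis) for all 7805 tested genes (grey) and the 32 tested members (coloured by class); dotted lines mark 2-fold. CDH2 lies at the lower left with -2.32 and -2.14, while ITGAV and CDH19 are low at E14 alone and ITGA7 is high at E14 alone.

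Between the stages, 0 of the 32 members passed the limma test for E14 against E12, beside 0.256% of all genes (0.141% as higher and 0.115% as lower). At an unadjusted p under 0.05 there were 0 members, beside 6.91% of all genes. The lowest adjusted p was 0.792, that of CDH8. In TC, ITGAV had the highest difference, with 150.3 at E14 and 37.8 at E12 (log2 difference of 1.99), and ITGA7 the lowest, with 16.3 at E14 and 55.95 at E12 (-1.78). In TC+AC the highest was ITGA9, with 57.4 at E14 and 20.5 at E12 (1.49), and the lowest PCDH18, with 25.7 at E14 and 75.4 at E12 (-1.55). Next to these came CDH8 (1.49), CDH19 (1.41), CDH5 (-1.26) and ITGA11 (-1.21) in TC, and PCDH15 (1.24), CDH3 (0.90) and CDH20 (-0.79) in TC+AC. CDH19 was below background in TC+AC at E14 and has only a bound there. The ITGA9 value in TC+AC at E12 lay just above its background of 19.1. The other ITGA9 probe set was at or below background on all 4 arrays. After quantile normalization, both E14 values lay above both E12 values in 3 members (CDH8, ITGA2 and ITGB1), beside 12.7% of all genes. They lay below them in 4 (CDH20, PCDHGC5, PCDH1 and PCDH18), beside 19.6% of all genes. On the deposited intensities the TC+AC differences of CDH8, ITGA2 and ITGB1 were -0.97, -0.82 and -1.07. Those of ITGA9 and PCDH18 were 0.41 and -2.52.

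For ITGAV, ITGA7, ITGA9 and PCDH18 the other tissue had smaller differences or ones of opposite sign, and that contrast was not tested. ITGAV had -0.46 in TC+AC and ITGA7 0.67, against the values above in TC, and ITGA9 and PCDH18 had -0.07 and -0.23 in TC. In TC, 5 members were at least 2-fold higher at E14 and 7 at least 2-fold lower, beside 8.3% and 14.1% of all genes. In TC+AC these counts were 2 and 1 after quantile normalization, beside 4.71% and 7.92%. They depended on scaling, at 1 and 2 with arrays centred on their medians and 0 and 18 as deposited. On the deposited intensities the median over all genes in TC+AC was -1.34. In both tissues together 0 members were at least 2-fold higher or lower, beside 0.897% and 1.49% of all genes. CDH2 had a fitted stage difference of -0.81 on the log2 scale (limma adjusted p = 0.874), with 63.1 at E14 and 104 at E12 in TC+AC, and 278 at E14 and 519 at E12 in TC.

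**Figure D4:**
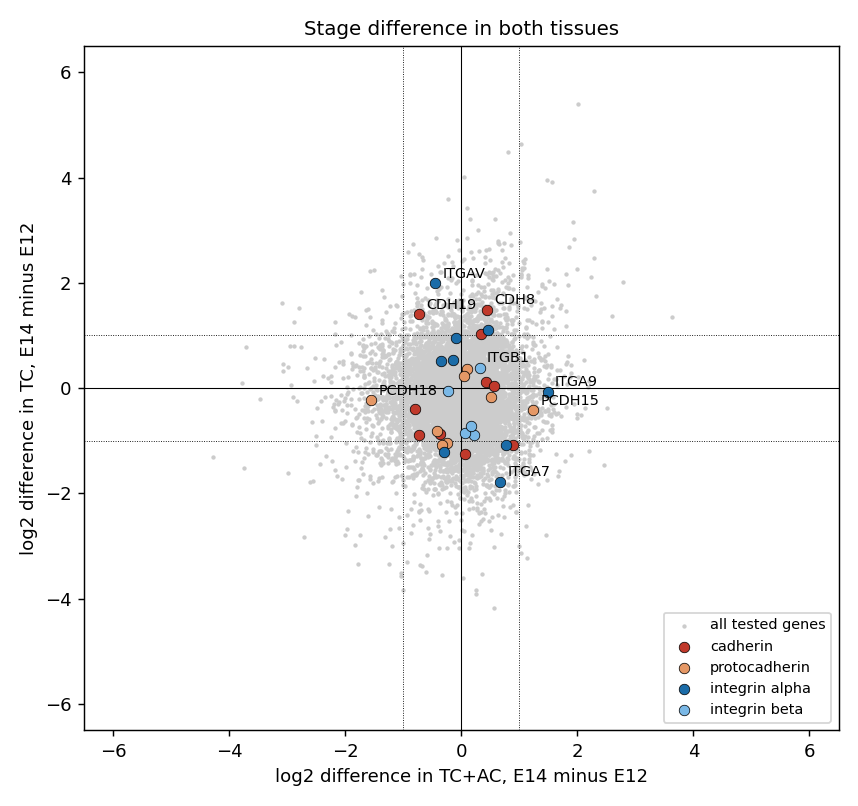
Log2 difference of E14 minus E12 in TC+AC (x axis) against TC (y axis) for all 7805 tested genes (grey) and the 32 tested members (coloured by class); dotted lines mark 2-fold. No member is past 2-fold in the same direction in both tissues, and ITGAV (1.99) and ITGA7 (-1.78) are the extremes along the TC axis.

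Of the genes that work with cadherins, 14 of 18 catenins and partners found were tested. For tissue 0 passed in either direction (limma), beside 1.47% of all genes. At an unadjusted p under 0.05 there was 1 (JUP), beside 13.4% of all genes. CTNNB1, the beta-catenin that binds cadherin tails and carries WNT signals, had 4430.3 in TC+AC and 5738 in TC at E12, and 3225 in TC+AC and 5772 in TC at E14 (-0.61 ± 0.50, SE, limma, 4 arrays, adjusted p = 0.659). CTNNA1, which links the complex to actin, had 83.1 in TC+AC and 81.9 in TC at E12, and 36.8 in TC+AC and 88.0 in TC at E14. JUP, the plakoglobin of desmosomes and adherens junctions, had log2 differences of 0.49 and 2.53 (adjusted p = 0.161). Beside the CDH2 call, the catenin list thus held no call of its own. After quantile normalization its median log2 differences were -0.11 at E12 and 0.10 at E14, beside -0.0019 and 0.05 over all genes.

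On the inner side of integrins, 30 of 37 focal adhesion and integrin activation genes found were tested and 0 passed for tissue (limma; 6 at an unadjusted p under 0.05 were PTK2B, PXN, TNS1, SRC, CIB1 and CD81, all with positive fitted values, beside 13.4% of all genes at that level). After quantile normalization their median log2 difference was 0.18 at E12 and 0.70 at E14, beside -0.0019 and 0.05 over all genes. Other scalings were not run for this list, and as deposited the E14 median over all genes was -1.09. ILK, the integrin-linked kinase, had 1098 in TC+AC and 917 in TC at E12, and 1198 in TC+AC and 450.4 in TC at E14 (adjusted p = 0.492). TLN1, the talin that activates integrins, had 373 in TC+AC and 366 in TC at E12, and 319 in TC+AC and 173 in TC at E14 (adjusted p = 0.763). CD81, a tetraspanin that associates with integrins, had log2 differences of 1.77 and 1.48 (adjusted p = 0.104).

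Among integrin ligands, 35 of 40 genes found were tested, and 1 was higher (FBLN5) and 3 were lower (TNN, SPP1 and IBSP) in TC+AC, beside 0.743% and 0.73% of all genes. SPP1 and IBSP were also among the hypertrophic cartilage and osteoblast markers above, so those calls are not separate from the marker sums. FBLN5, which encodes the elastic fibre protein fibulin-5, had 53.7 in TC+AC and 14.5 in TC at E12, and 66.7 in TC+AC and 17.1 in TC at E14 (1.92 ± 0.50, SE, limma, 4 arrays, adjusted p = 0.0441). Its TC value at E12 was below background, so it was at least 2.85-fold higher in TC+AC there, and it was 3.90-fold higher at E14. SPP1, which encodes osteopontin, a ligand of alpha V integrins, had 87.0 in TC+AC and 808 in TC at E12, and 32.9 in TC+AC and 351 in TC at E14 (-3.32 ± 0.50, adjusted p = 0.000114). Both ligands had groups that did not overlap. The tenascin-W gene TNN (adjusted p = 4.44e-06) was below background in both TC+AC arrays, and IBSP, which encodes bone sialoprotein, had a fitted log2 difference of -3.70 (adjusted p = 8.15e-05). FN1, which encodes fibronectin, had 984 in TC+AC and 1981 in TC at E12, and 1302 in TC+AC and 828 in TC at E14 (adjusted p = 0.926). For stage, 1 ligand gene passed (COMP, higher at E14, adjusted p = 0.0312), beside 0.141% of all genes that rose. Of the other cadherin family (FAT, DCHS, CELSR, desmosomal and related genes), 6 of 19 found were tested. For tissue or stage 0 passed (limma), beside 1.47% and 0.256% of all genes. At an unadjusted p under 0.05 there were 0, beside 13.4% and 6.91% of all genes.

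The 18 members too dim for the test were CDH1, CDH6, CDH7, CDH9, CDH10, CDH12, CDH17, CDH18, CDH23, ITGA8, ITGB6, PCDH7, PCDH8, PCDH9, PCDH10, PCDH12, PCDH19 and PCDHAC2. By the probe set of highest mean, 10 of these were at or below background on all 4 arrays, 6 were above it on some and 2 (CDH9 and PCDH9) on all. Over every probe set, 8 genes had none above background on any array, since ITGA8 had another above it in both E12 samples and CDH18 had one at 19.25 in TC E14. CDH9 had 39.8 in TC+AC and 25.25 in TC at E12, and 39.95 in TC+AC and 16.85 in TC at E14. CDH1, the E-cadherin of epithelia, was above background in TC+AC at E14 alone (33.3). Of the 5 epithelial markers found of 7 listed, EPCAM was below background on every array and 4 were above it on each. Their sum was 333 in TC+AC and 419 in TC at E12, and 404 in TC+AC and 210.5 in TC at E14. The part of epithelium in the CDH1 values was not tested.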

How the data were processed

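Total RNA of 4 samples was biotin labelled and hybridized to a chicken expression array, per the labels' protocols. The authors deposited 1 linear intensity per probe set and array, and the labels do not say how it was summarised, background corrected or scaled. From 38535 probe sets the 96 controls were left out, and 38439 were quantile normalized, floored at the 20th percentile of all values (4.275) and taken to log2. The platform annotation gave 1 symbol to 27178 probe sets, several to 177 and none to 11180, and all 50 members matched a RefSeq gene by ID. The brightest probe set stood for each of 13009 genes, and the lowest 40% were left out, which left 7805.

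Tissue and stage were additive terms of a linear model (limma 3.58.1 in R 4.3.3, lmFit and eBayes), with Benjamini-Hochberg adjustment over 7805 genes at 0.05. Each gene had 1 residual degree of freedom and the prior 27.0, so standard errors come mostly from the prior. The model was tested on simulated data with 200 changed genes. A 2-fold difference passed in 0.5% of them for tissue and for stage. A 4-fold difference passed in 77.5% for tissue and 76.5% for stage. The simulated noise was independent, had the prior spread for every gene and held no fault shared across an array. These shares thus need not hold for the real arrays, where scaling and the TC+AC E14 array matter. A gene that did not pass may thus still differ by 2-fold. Background came from 541 virus probe sets, and a fold with 1 side at or below it is given as a bound. Within a stage or tissue there is no test. For arrays, their number limits the precision.

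The members and lists were chosen with earlier results of these data known. Values are given by array for members past the test, past 2-fold at both stages, among the 3 highest or lowest at a stage, or on a list of integrins and cadherins known in cartilage and vessels, and the same rule was used in each tissue. CDH4, CDH9, ITGA2, ITGB2, PCDH17, PCDHGA2, JUP, CD81 and ITGBL1 were chosen after their values were seen. The alternatives tried were other scalings, filters, floors, probe set summaries, an intensity trend, no stage term and 3 arrays. Gene order came from the RefSeq GRCg7b table, and no coordinates are printed because no source here names the array's build. Figures used Python 3.11.15 and matplotlib 3.10.9.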

Additional observations from a re-analysis of the deposited data

Results flagged for a closer look

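After quantile normalization, ITGAV and ITGA7 had tissue differences of opposite sign at E12 and E14 that lay at least 4-fold apart, as did 3.74% of all tested genes. The E14 difference of ITGAV minus its E12 difference was -2.45 on the log2 scale, and that of ITGA7 was 2.44. The ITGA7 flag depended on the setting. As deposited its differences were -0.41 at E12 and 0.76 at E14, less than 4-fold apart. With probe sets averaged they were 0.34 and 1.06, of the same sign. As deposited those of ITGAV were 0.65 and -2.95. With 1 array per group, the change between stages was not tested.

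Of the members too dim for the test, 3 were above background in TC+AC and not in TC at a stage. PCDH19 had 43.6 in TC+AC and 1.98 in TC at E14, at least 2.80-fold higher, after 41.5 in TC+AC and 32.5 in TC at E12. CDH1 had 33.3 in TC+AC and 13.7 in TC at E14, at least 2.14-fold higher. CDH17 had 21.55 in TC+AC and 10.3 in TC at E12, at least 1.14-fold higher.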

How the results depend on the processing

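With 4 arrays and no replicate, p-values say nothing of the spread between embryos, and TC+AC at E14 was the array with the highest 3' over 5' ratio. The count of members called for tissue, 1 (CDH2), was also 1 with arrays centred on their medians, the lowest 60% of genes left out, the floor at the 10th percentile and an intensity trend. It was 0 as deposited, with 2 of 32 members at an unadjusted p under 0.05 (limma), beside 360 of 7805 genes. With no filter on dim genes it was 0 (6 of 50 members, beside 715 of 13009 genes), in a fit that called 0 of all genes. With probe sets averaged per gene it was 0 (4 of 25 members, beside 884 of 7805 genes). The count was also 0 with no stage term (5 members) and with the second CDH2 probe set (4 members), an alternative chosen after seeing the data. On 3 arrays, fitted with tissue alone, it lay between 0 and 4. It was 0 without TC+AC E12 (CDH2 adjusted p = 0.589) and without TC+AC E14 (0.999), fits that called 0 of all genes (570 and 213 at an unadjusted p under 0.05), 1 without TC E14 (CDH2, 0.00711) and 4 without TC E12 (CDH2 at 0.0318, CDH19 and ITGAV lower, ITGA11 higher). Over all alternatives the adjusted p of CDH2 ran from 0.000843 to 0.999, and the cause of the lost calls was not tested. The count for stage was 0 in every setting run, with 0 to 9 members at an unadjusted p under 0.05. At least 2-fold for tissue at both stages were 2 members with arrays centred on their medians (CDH2 and ITGA11), beside 290 of 7805 genes. With no filter there were 3 (CDH1, CDH2 and PCDH10), beside 719 of 13009 genes. The main setting had 1, beside 303 of 7805 genes. Of the no-filter members, CDH1 at E12 and PCDH10 at both stages lay at or below background in both tissues and have no measured fold. At least 2-fold for stage in both tissues were 3 as deposited (CDH5, ITGA11 and PCDHGA2, all lower), beside 700 of 7805 genes. There was 1 with centred arrays (CDH2, lower), beside 334 of 7805 genes. With no filter there were 2 (CDH1 and CDH18), beside 542 of 13009 genes. The main setting had 0, beside 186 of 7805 genes. Of the no-filter members, CDH1 in TC and CDH18 in both tissues lay at or below background. Of 702 comparisons of uncalled member results with an alternative, 699 stayed on the same side of the threshold, and the 3 others came from the fit without TC E12. In the main fit these results had limma adjusted p of 0.167 or more. A change of sign between uncalled values was not counted, as for CDH5 for tissue (0.11, and -0.42 as deposited). The count thus does not measure how stable the values were. The tissue test pairs the tissues by stage, and without that block the adjusted p of CDH2 was 0.19, against 0.0136 with it. A pairing by replicate number was not possible because each group had 1 array.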

Other observations

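Of the 8 genes that share a prefix with the integrins and cadherins but encode no subunit, ITGBL1, an integrin beta-like secreted protein, came nearest to the threshold. It had 63.1 in TC+AC and 220.7 in TC at E12, and 80.1 in TC+AC and 299.95 in TC at E14, with a log2 difference of -1.86 and a limma adjusted p of 0.0542. The groups did not overlap. ITGB1BP1 and ITGB3BP, which encode proteins that bind beta subunits, had fitted log2 differences of -0.13 and 0.38 (limma adjusted p of 0.943 and 0.815), and CDHR1 and CDHR5 were at or below background on all 4 arrays.

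The members had 111 probe sets, and 30 of the 50 genes had more than 1. Of the 61 that were not the brightest of their gene, 4 were above background on every array (those of CDH2, CDH11, CDH13 and ITGB1).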
